A study of Homo sapiens with 6 samples.

Results

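GBP1, GBP2, GBP3, GBP4, MX1 and MX2 encode interferon-inducible GTPases, and their transcripts were examined in 6 RNA sequencing libraries of A549 cells. They were the rows with these 6 gene names among the 58302 gene rows of the deposited table, and all 6 passed the filter on low counts, as did 15631 genes in all. The 6 genes were picked with earlier results of these same libraries in view, so their difference between the groups is described here and not tested. A549 is an established human lung adenocarcinoma cell line. The tested cells were A549 transfected with SNHG5, the long non-coding RNA small nucleolar RNA host gene 5, in 3 libraries. They were set against A549 transfected with vector, also in 3 libraries. The labels call the libraries biological replicates, and give neither the plasmid nor the time after transfection. Both groups went through transfection, and cells without it were not analysed here. The series title places SNHG5 in the migration, invasion and epithelial-mesenchymal transition of lung adenocarcinoma cells.

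The guanylate-binding proteins (GBPs) and the MX proteins are large GTPases of the dynamin superfamily, which hydrolyse GTP as they assemble into oligomers. GBPs coat intracellular bacteria and the vacuoles of parasites and take part in inflammasome activation. MX1 (MxA) blocks influenza and many other RNA viruses, and MX2 (MxB) blocks HIV-1 at nuclear entry. Interferon induces all of them through transcription factors that its receptors activate, among them interferon regulatory factors (IRFs): MX genes are textbook targets of type I and type III interferon through the transcription factor complex ISGF3, and GBP genes respond most strongly to interferon gamma, in part through IRF1.

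The 4 GBP genes lie in one cluster on the minus strand of chromosome 1 (GRCh38). In order along the chromosome these are GBP3 (ENSG00000117226, 89006666 to 89022894), GBP1 (ENSG00000117228, 89052319 to 89065360), GBP2 (ENSG00000162645, 89106132 to 89150456) and GBP4 (ENSG00000162654, 89181148 to 89198932). The MX genes are neighbours on the plus strand of chromosome 21, MX2 (ENSG00000183486, 41361943 to 41409390) before MX1 (ENSG00000157601, 41420304 to 41459214). All 6 are annotated as protein-coding, with 3 transcripts for GBP4 and up to 18 for MX1 in GENCODE release 29.

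Promoter windows from RefSeq (GRCh38.p14) were matched for 4 of the 6 genes, with 3 annotated starts for MX1. They are shown as a description, since the interferon-stimulated response element (ISRE) is the site that ISGF3 and IRFs read. Its part in the levels of the 6 transcripts was not tested. Each line gives 100 bases, 5′ to 3′ on the gene's strand, and capitals mark matches on either strand to the ISRE core (GAAA repeated after any pair of bases), to its shorter form GAAANGAAA or to the STAT site TTCNNNGAA. Adjoining capitals can be overlapping matches. The 100 bases were cut from windows of 300 bases so as to hold the ISRE matches, or the shorter form where there was none. A match in every line was therefore fixed in advance. The shorter form was added after the sequences were seen, and it alone gives the middle MX1 start its capitals.
GBP1, chr1:89065281-89065380: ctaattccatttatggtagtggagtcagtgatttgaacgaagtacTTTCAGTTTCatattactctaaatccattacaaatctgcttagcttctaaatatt
GBP3, chr1:89022842-89022941: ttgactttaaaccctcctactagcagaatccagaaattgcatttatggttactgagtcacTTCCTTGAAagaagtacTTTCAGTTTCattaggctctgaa
GBP4, chr1:89198918-89199017: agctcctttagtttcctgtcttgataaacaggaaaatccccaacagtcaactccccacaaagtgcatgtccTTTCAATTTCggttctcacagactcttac
MX1 upstream start, chr21:41420483-41420582: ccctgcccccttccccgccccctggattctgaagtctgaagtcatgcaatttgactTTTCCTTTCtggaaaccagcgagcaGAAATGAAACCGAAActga
MX1 middle start, chr21:41426103-41426202: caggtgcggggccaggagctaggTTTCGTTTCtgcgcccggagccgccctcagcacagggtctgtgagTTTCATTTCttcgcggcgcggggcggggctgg
MX1 downstream start, chr21:41431809-41431908: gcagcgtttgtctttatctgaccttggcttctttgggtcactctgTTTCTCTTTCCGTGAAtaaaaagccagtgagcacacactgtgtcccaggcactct

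GBP1 and GBP3 held the same ISRE letters, TTTCAGTTTC, within a stretch of 156 aligned columns of their windows that was 75% identical. Positions here are counted from RefSeq starts, which differ from the GENCODE gene ends given above. In GBP1 these letters lay at bases -127 to -118 from the RefSeq start at 89065208. In GBP3 they lay at bases 3 to 12 after the RefSeq start at 89022866. By the GENCODE starts, at 89065360 and 89022894, both copies lie within the gene. GBP4 held TTTCAATTTC across its RefSeq start, from base -4 to base 6. The window of the upstream MX1 start held GAAACCGAAA at bases 12 to 21 after the start. That of the downstream start held TTTCTCTTTC at bases -196 to -187, overlapping a STAT site, and that of the middle start held the shorter form at 2 places. The ISRE core occurred in 3.57% of 35116 promoter windows of 300 bases, GAAANGAAA in 3.12% and TTCNNNGAA in 7.66%. A match of letters is a description and not evidence of a bound site, and the counts do not show which MX1 start was used.

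The libraries held 13378079 to 16999604 counts. SNHG5 itself stood at 153.3, 126.5 and 62.9 CPM (counts scaled to library size with TMM factors) in overexpression 1, 2 and 3, against 61.0, 101.3 and 55.1 CPM in controls 1, 2 and 3. The groups overlapped. The log2 difference was 0.66 (SE 0.37), which did not pass in edgeR (adjusted p 0.746), and a two-sided exact permutation test gave p = 0.2, where 0.1 is the smallest possible. The library labelled overexpression 3 thus held less SNHG5 than control 2, and every direction below is between libraries as labelled. Ribosomal RNA genes took 1.04% to 1.14% of counts in the overexpression libraries and 0.8% to 0.852% in the controls, a split that follows the groups. Its part in the results was not tested. The epithelial keratin KRT8 stood at 1260 to 2240 CPM in the overexpression libraries and 2430 to 2660 CPM in the controls. The epithelial adhesion molecule EPCAM was low, at 3.27 to 4.18 and 2.26 to 3.99 CPM. Of 8 epithelial and lung adenocarcinoma line markers KRT8 alone separated the groups. KRT19, for example, stood at 93.2 to 106 CPM in the overexpression libraries and 80.7 to 113 CPM in the controls. Of 9 leukocyte markers, 6 were at 0 counts in every library, PTPRC and CD3E among them, and the list summed to 4.42 to 10.1 CPM in the overexpression libraries and 4.12 to 10.4 CPM in the controls. Endothelial markers summed to at most 0.133 CPM. Fibroblast markers, all 5 with a count, summed to 4.91 to 21 CPM in the overexpression libraries and 10.2 to 20.2 CPM in the controls.

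All 6 GTPase transcripts were lower in the libraries labelled overexpression, by 2.33-fold for GBP2 at the smallest and 21.3-fold for GBP4 at the largest. For each of the 6, every overexpression library lay below every control. Groups that did not overlap were found for 7.52% of the 15631 genes tested in this direction, and for 6.04% in the other. The median log2 fold change was -2.26 over the 6 genes and 0.01 over all genes tested, and 3.03% of all genes had a fitted value of -1 or lower, as all 6 did. In edgeR 0 of the 6 passed an adjusted threshold of 0.05, which 16 of all genes passed as lower (0.102%) and 4 as higher (0.0256%). With the replicate number as a block 5 of the 6 passed, beside 69 of all genes (0.441%), and with DESeq2 also 5, beside 246 (1.57%), with 0.128% of all genes passing as higher. GBP2 was the gene left out in both. Nothing is read from these counts, since the genes were picked from this contrast. In bulk RNA, fewer cells that express a gene and less of its RNA per cell cannot be told apart.

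**Figure D1:**
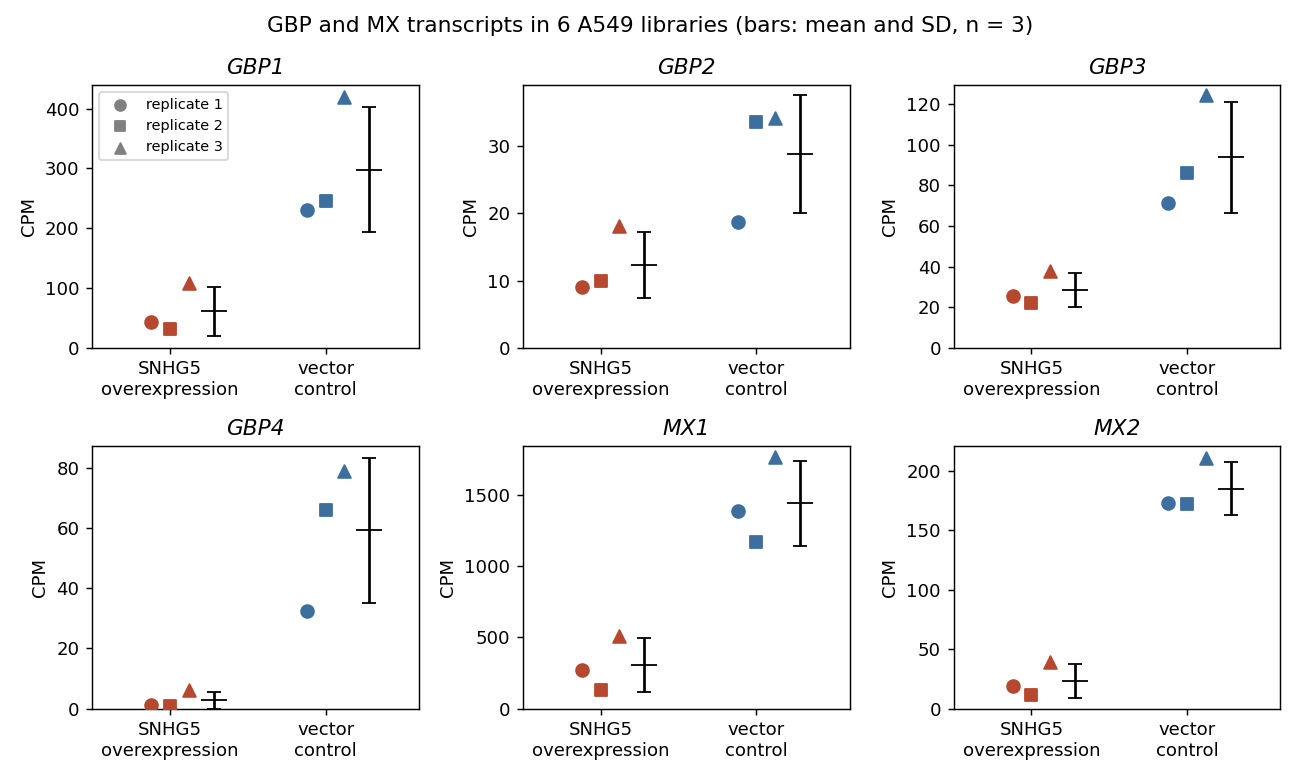
CPM of each GTPase transcript (y axis, linear, from 0) in SNHG5 overexpression and vector control libraries; symbols are the replicate numbers and black marks the mean and SD of 3 libraries. In each panel the overexpression libraries sit below all controls, and overexpression 3 is the highest of its group, at 511.2 CPM for MX1 and 6.05 CPM for GBP4.

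MX1, the most abundant of the 6, had 272.3, 132.4 and 511.2 CPM in overexpression 1, 2 and 3, against 1388, 1169 and 1762 CPM in controls 1, 2 and 3. Even its highest overexpression library held less than the lowest control. It averaged 305 ± 192 CPM in overexpression libraries and 1440 ± 300 CPM in controls (SD, n = 3 each), 4.72-fold lower, with a log2 difference of -2.24 (SE 0.47), which was -2.84 without overexpression 3. MX2, its neighbour and closest relative, had 19.4, 11.8 and 39.2 CPM in overexpression 1, 2 and 3, against 173.1, 172.0 and 211.2 CPM in controls 1, 2 and 3. The controls lay close together for MX2, with a coefficient of variation of 12%, whereas the overexpression libraries varied by 60.3%. Its log2 difference was -2.98 (SE 0.43), or 7.88-fold lower, and was -3.57 without overexpression 3.

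GBP1, the best studied human GBP, which binds bacterial lipopolysaccharide, had 43.3, 32.2 and 107.8 CPM in overexpression 1, 2 and 3, against 229.9, 245.2 and 419.6 CPM in controls 1, 2 and 3. The log2 difference was -2.29 (SE 0.48), 4.88-fold lower, and it was -2.98 without overexpression 3. GBP3, whose protein is the nearest relative of GBP1, had 25.7, 21.98 and 37.7 CPM in the overexpression libraries and 71.4, 86.1 and 124.2 CPM in the controls. GBP3 showed the smallest SE of the 6, with a log2 difference of -1.72 (SE 0.30). GBP2, a prenylated GBP like GBP1, had 9.10, 9.90 and 18.1 CPM in the overexpression libraries and 18.7, 33.6 and 34.2 CPM in the controls. Here the groups almost touched, overexpression 3 lying just under control 1, and the log2 difference was -1.22 (SE 0.36).

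GBP4, which lacks the prenylation signal of GBP1, GBP2 and GBP5, stood furthest apart. It had 21, 12 and 104 counts in overexpression 1, 2 and 3, against 488, 1006 and 1283 counts in controls 1, 2 and 3. These counts correspond to 1.27, 0.873 and 6.05 CPM in the overexpression libraries and 32.5, 66.0 and 79.0 CPM in the controls. The log2 difference of GBP4 was -4.41 (SE 0.74), the 4th lowest of all genes tested. Overexpression 3 held 6.93 times as much GBP4 as overexpression 2, so the mean of 2.73 ± 2.88 CPM rests largely on 1 library. Without overexpression 3 the log2 difference of GBP4 was -5.76.

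**Figure D2:**
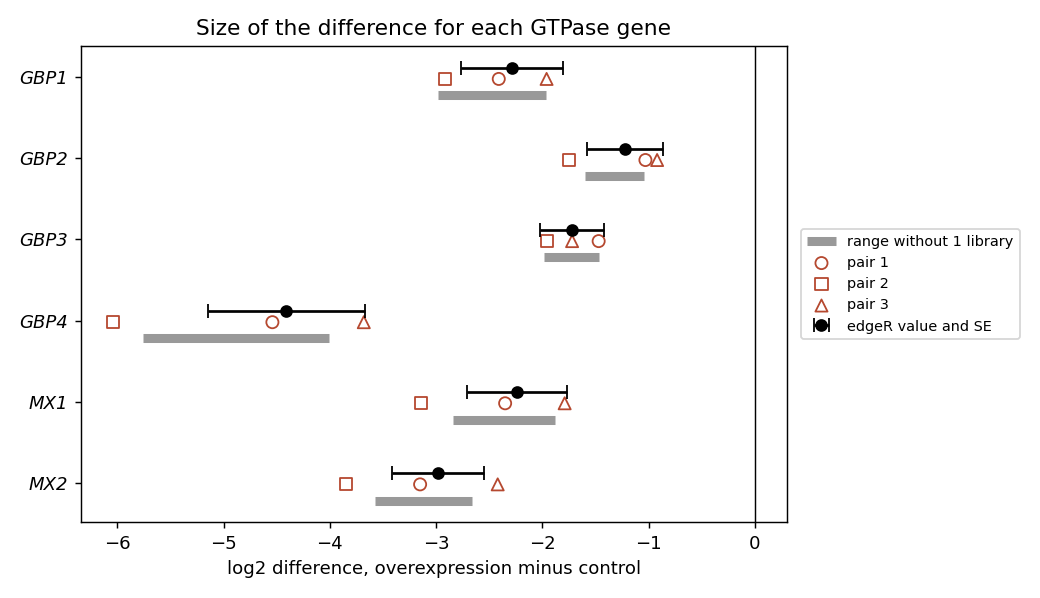
Log2 difference between overexpression and control (x axis) for each GTPase gene (rows); black points with bars are the edgeR value and SE, open symbols the same-numbered pairs of libraries, and grey bars the range of edgeR values when 1 library is left out. GBP4 lies furthest from 0, at -4.41, and GBP2 nearest, at -1.22; pair 2 gives the lowest value in every row.

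In same-numbered pairs the order of the replicates recurred. Pair 2 gave the lowest log2 difference of the 3 pairs for all 6 genes, from -6.04 for GBP4 to -1.75 for GBP2. Both libraries of that pair stood apart in the nuclear RNA MALAT1, at 118.3 CPM in overexpression 2 and 28.1 CPM in control 2, against 372 to 476.1 CPM in the other libraries. Their mitochondrial share of counts was also the lowest of each group, 3.8% in overexpression 2 and 2.57% in control 2. In pairs 1 and 3, which hold neither library, the log2 differences of the 6 genes ran from -4.54 to -0.92. Pair 3 gave the value nearest to 0 for 5 of them, and pair 1 did for GBP3, at -1.47 against -1.72 in pair 3.

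The proportions among the 6 transcripts were not the same in the groups. MX1 made up 73.4%, 63.3% and 71.0% of their summed CPM in overexpression 1, 2 and 3, while its share was 72.5%, 66.0% and 67.0% in controls 1, 2 and 3. That share overlapped between the groups although the sum itself was 371.1, 209.1 and 720.1 CPM in overexpression 1, 2 and 3, against 1913, 1772 and 2631 CPM in controls 1, 2 and 3. The log2 ratio of GBP1 to MX1 was alike in both groups, -2.31 ± 0.31 in overexpression libraries and -2.31 ± 0.27 in controls (SD, n = 3 each). GBP1 and MX1 are on different chromosomes.

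Other ratios moved. GBP4 stood below GBP2 in overexpression libraries, with log2 ratios of -2.72, -3.32 and -1.56 in overexpression 1, 2 and 3, and above GBP2 in controls, with 0.80, 0.97 and 1.21 in controls 1, 2 and 3. The pair thus changed places in every library. Between the MX neighbours the log2 ratio of MX1 to MX2 was 3.80, 3.47 and 3.70 in overexpression 1, 2 and 3, against 3.00, 2.76 and 3.06 in controls 1, 2 and 3. MX2 was therefore lower relative to MX1 in each overexpression library. The log2 ratio of GBP1 to GBP3 overlapped between the groups, with 0.75, 0.55 and 1.51 in overexpression 1, 2 and 3, against 1.69, 1.51 and 1.76 in controls 1, 2 and 3. The GBP2 to GBP3 ratio also overlapped.

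Levels of different genes were compared as CPM per kilobase of annotated exons. In the controls the order was MX1 at 167 ± 34.8, GBP1 at 59.7 ± 21.1, GBP3 at 21.8 ± 6.34, MX2 at 14.2 ± 1.71, GBP4 at 9.64 ± 3.91 and GBP2 at 4.58 ± 1.40 CPM per kilobase (SD, n = 3). GBP4 and GBP2 overlapped there, since control 1 held 5.30 CPM per kilobase of GBP4 and control 3 held 5.44 of GBP2. GBP3 and MX2 were separated by little, 16.6 in the lowest control for GBP3 and 16.2 in the highest for MX2, and they changed places with the gene lengths behind the deposited FPKM.

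In the overexpression libraries the order was MX1 at 35.4 ± 22.2, GBP1 at 12.2 ± 8.17, GBP3 at 6.62 ± 1.91, GBP2 at 1.96 ± 0.787, MX2 at 1.80 ± 1.08 and GBP4 at 0.445 ± 0.470 CPM per kilobase (SD, n = 3). There GBP4 came last and GBP2 had moved ahead of MX2 and GBP4. Ranges of MX1 and GBP1, of GBP1 and GBP3, and of GBP2 and MX2 overlapped, as did those of MX2 and GBP4.

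**Figure D3:**
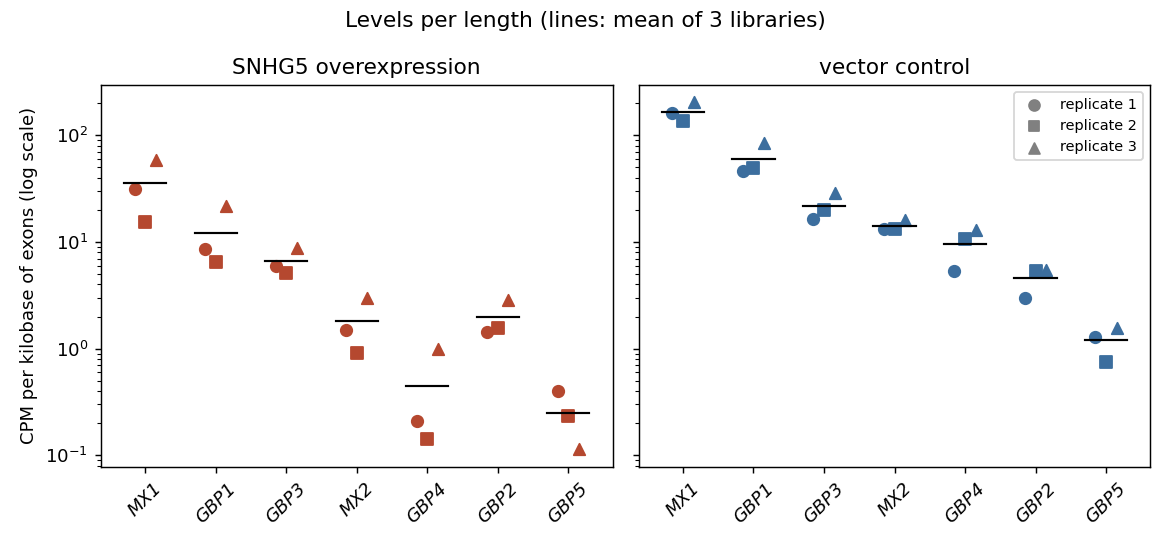
CPM per kilobase of annotated exons (y axis, log scale) for the 6 GTPase genes and GBP5, in SNHG5 overexpression (left panel) and vector control (right panel); symbols are replicates and lines means of 3 libraries. Genes are ordered by the control mean, from MX1 at 167 to GBP5 at 1.2, and GBP4 drops out of that order in the left panel, at 0.445.

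The 6 transcripts also varied together within a group. Deviations of log2 CPM from the library's own group mean, which hold no difference between the groups, correlated between the genes at 0.57 to 0.98 over the 6 libraries, with a median of 0.90 over 15 pairs. MX1 with MX2 gave the highest and GBP2 with MX1 the lowest value. These points share their libraries and 4 free values, so the coefficients are a description. Such values are not particular to the 6: 6.57% of 10927 other genes exceeded 0.9 with their mean. DNM1, a dynamin named after its values were seen, gave 0.96. Over all genes, too, overexpression 3 stood apart from overexpression 1 and 2 (chi-square 85.5 and 77.8 per degree of freedom, against 23.9 between those). Control 2 did so among the controls (85.2 and 85.7, against 25.6). Overexpression 3 lay above its group for all 6 genes, by 0.44 for GBP3 to 1.59 for GBP4, and overexpression 2 lay below it for all 6, by -0.25 for GBP2 to -1.04 for GBP4. In the controls the spread was smaller, from -0.77 to 0.55, and control 3 was the highest for each gene. SNHG5 deviated by 0.52, 0.24 and -0.76 in overexpression 1, 2 and 3, where the mean of the 6 genes deviated by -0.23, -0.69 and 0.92. In controls 1, 2 and 3 it deviated by -0.20, 0.54 and -0.34, and that mean by -0.36, -0.03 and 0.38. The signs were thus alike in control 1, and SNHG5 stood highest in overexpression 1 while the mean was lowest in overexpression 2. A relation of the genes to SNHG5 was not tested.

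**Figure D4:**
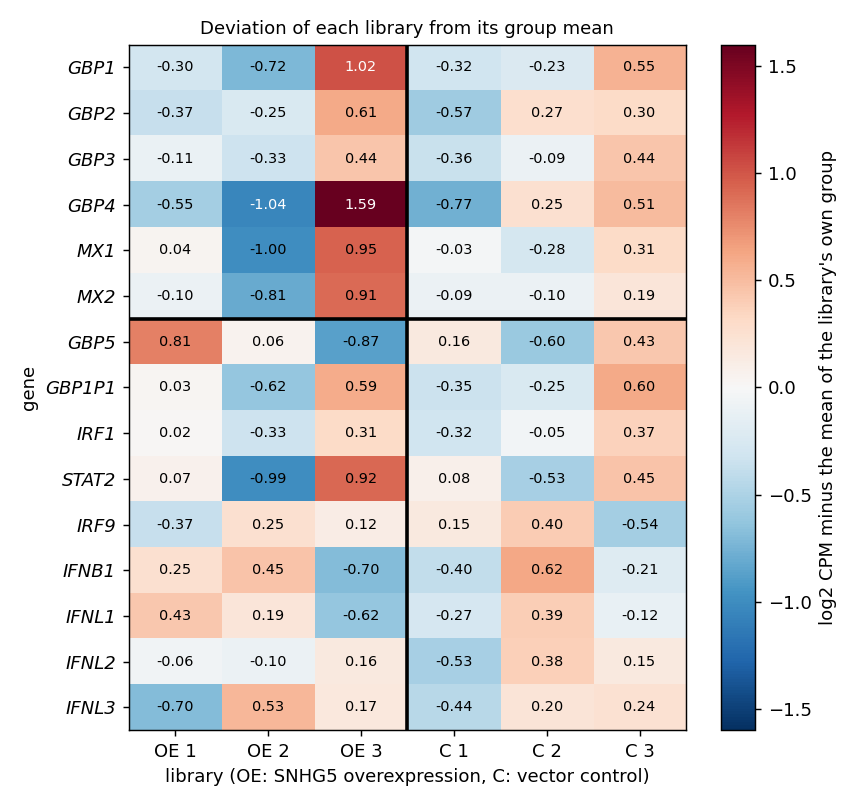
Deviation of log2 CPM from the mean of the library's own group (colour and printed value) for the 6 GTPase genes (above the line) and for GBP5, GBP1P1, transcription factors and interferons (below it), in overexpression (OE) and control (C) libraries. Overexpression 3 is the highest of its group for all 6 GTPase genes, whereas GBP5, IFNB1 and IFNL1 are at their lowest there, at -0.87, -0.70 and -0.62, and IFNL2 and IFNL3 lie above their group mean, at 0.16 and 0.17.

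Among 4 further members of the GBP family, GBP5 and the pseudogene GBP1P1 were tested, and GBP6 and GBP7 were not. GBP7 had 0 counts in every library, which allows at most 0.176 to 0.224 CPM at a floor of 3 counts per library, and GBP6 had 1 count in all. GBP5, which promotes NLRP3 inflammasome assembly, had 3.28, 1.89 and 0.931 CPM in overexpression 1, 2 and 3, against 10.5, 6.17 and 12.7 CPM in controls 1, 2 and 3. It was 4.81-fold lower but did not pass (edgeR adjusted p 0.174, and 0.148 with the block). Within the overexpression group GBP5 ran against the other GBP genes, since overexpression 3 was its lowest library and overexpression 1 its highest. That order rests on 54, 26 and 16 counts in overexpression 1, 2 and 3. GBP1P1 stood at 4.84 ± 2.01 CPM in overexpression libraries and 19.1 ± 7.49 CPM in controls (SD, n = 3 each), with an edgeR adjusted p of 0.148, and of 0.0446 with the block. Its reads may in part be those of GBP1, as given below.

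Relatives that are not known as interferon-induced had values nearer to 0. The 3 atlastins, GTPases that fuse endoplasmic reticulum membranes and are the nearest relatives of GBPs, had log2 differences of 0.20 to 0.78, and 0 of 3 passed in edgeR or DESeq2, with 0 at an unadjusted p under 0.05. ATL1 was at 0.78 (SE 0.63) and ATL2 at 0.39 (SE 0.20). The 7 dynamins and mitofusins, which divide or fuse membranes, lay between -0.30 and 0.63 with a median of 0.06, and 0 of 7 passed in edgeR or DESeq2, with 1 at an unadjusted p under 0.05. OPA1 and MFN1, both of mitochondrial fusion, were at 0.59 and 0.63 (edgeR adjusted p 0.746 and 0.743). IRGQ, of the immunity-related GTPases, stood at 45.5 ± 3.05 CPM in overexpression libraries and 43.1 ± 5.77 CPM in controls (edgeR adjusted p 0.905). A p that misses the threshold does not show that levels were equal. The SE of these relatives ran from 0.16 for MFN2 to 0.63 for ATL1.

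Of 9 listed interferon genes 5 were tested, 4 had a value below 0 and 3 passed as lower, IFNL1, IFNL2 and IFNL3, with log2 differences of -3.19, -3.73 and -3.60 (edgeR adjusted p 0.0291, 0.0165 and 0.0327). Left without overexpression 1, overexpression 2, control 2 or control 3, edgeR called 0 of the listed genes, these 3 included. They encode type III interferons. Because the IFNL2 and IFNL3 sequences are almost the same, their counts are uncertain. IFNB1, the type I interferon beta gene, named after its values were seen, was at -3.13 (edgeR adjusted p 0.0667, and 0.0312 with the block). IFNE, an epithelial type I interferon gene, lay the other way, at 2.83 ± 0.635 CPM in overexpression libraries and 1.63 ± 1.22 CPM in controls (SD, n = 3 each), with a log2 difference of 0.79 (edgeR adjusted p 0.755). IFNE was also named after its values were seen. IFNG, which encodes interferon gamma, had 0 counts in every library.

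Receptor genes had values on both sides of 0. The 6 receptor subunits for type I, II and III interferon lay between -0.33 and 0.66 with a median of 0.01, and 0 of 6 passed in edgeR or DESeq2, with 1 at an unadjusted p under 0.05. IL10RB, a subunit of the type III receptor, was at 0.66 and IFNGR1, of the interferon gamma receptor, at -0.33 (edgeR adjusted p 0.743 and 0.749).

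Between receptor and promoter, 7 of 8 genes had a fitted value below 0, with a median of -1.06. In edgeR 0 passed and 6 had an unadjusted p under 0.05, as 6.49% of all genes tested did. With the block 2 of 8 passed, beside 0.441% of all genes as lower, and in DESeq2 4 did, beside 1.57%. IRF1, the factor that GBP induction depends on, had 70.2, 55.3 and 86.2 CPM in overexpression 1, 2 and 3, against 186.3, 225.2 and 300.2 CPM in controls 1, 2 and 3. It was 3.36-fold lower, with an edgeR adjusted p of 0.0668 and of 0.0362 with the block. IRF2, its relative, was at -1.22 (edgeR adjusted p 0.121, and 0.0653 with the block). STAT2, a subunit of ISGF3, was at -1.88 (edgeR adjusted p 0.295, and 0.0367 with the block). IRF9, another subunit, was at -0.99, and did not pass (edgeR adjusted p 0.457, and 0.355 with the block). Deviations of IRF1 and STAT2 within groups correlated with the mean of the GTPase genes at 0.89 and 0.86 over the 6 libraries. IRF9 gave -0.24, JAK1, a receptor-associated kinase, gave -0.86, and IRF2 gave 0.79, so the factors did not run alike. Nor did the interferon genes, at -0.65 for IFNB1 and for IFNL1, 0.53 for IFNL2, 0.14 for IFNL3 and -0.12 for IFNE. STAT2, IRF9 and JAK1 were named after their values were seen.

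Lists of other induced genes had fitted values as low as those of the 6 GTPases. The 12 genes known for induction through ISGF3 had a median of -2.38, from -3.50 to -1.74, with 0 passing in edgeR, 12 at an unadjusted p under 0.05, 6 passing with the block and 12 in DESeq2. IFI27 and HERC5, an ISG15 ligase, were at -2.49 and -2.32 (edgeR adjusted p 0.0667 and 0.0668). Of 13 genes known for induction by interferon gamma 10 were tested, with a median of -2.36, from -4.42 to -0.17, and 0 passed in edgeR, 8 had an unadjusted p under 0.05, and 3 passed with the block and 8 in DESeq2. The chemokine genes CXCL10 and CXCL11 were at -3.31 and -2.52 (edgeR adjusted p 0.0869 and 0.0779). Of all genes 6.49% had an unadjusted edgeR p under 0.05, and 0.102% passed as lower in edgeR, 0.441% with the block and 1.57% in DESeq2. Many of the listed genes answer to both kinds of interferon. The lists were drawn up with earlier results in view, so nothing is read from their counts.

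Genes for partners of the GTPase proteins were of 3 kinds. The 6 enzymes that prenylate and trim CaaX proteins, the modification that anchors GBP1, GBP2 and GBP5 to membranes, lay between -0.44 and 0.55, and 0 passed in edgeR or DESeq2, with 0 at an unadjusted p under 0.05. PGGT1B, a subunit of a prenyltransferase, was at 0.55 and FNTB, of farnesyltransferase, at -0.44 (edgeR adjusted p 0.746 each). The 6 host factors that bind the HIV-1 capsid or carry its cargo into the nucleus lay between -0.17 and 0.44, and 0 passed in edgeR or DESeq2, with 0 at an unadjusted p under 0.05. The import receptor TNPO1 was at 0.44 and the nuclear pore protein RANBP2 at 0.42 (edgeR adjusted p 0.749 and 0.765). Of 9 inflammasome and effector partners of GBPs, 7 were tested, all with values below 0 and a median of -1.39. In edgeR 0 of the 7 passed, though 5 had an unadjusted p under 0.05, beside 6.49% of all genes. With the block 3 passed, beside 0.441% of all genes as lower, and in DESeq2 3, beside 1.57%. APOL3, which acts with GBP1 to lyse cytosolic bacteria, stood at 0.667, 0.728 and 2.21 CPM in overexpression 1, 2 and 3, against 7.66, 9.05 and 16.4 CPM in controls 1, 2 and 3. Its edgeR adjusted p was 0.0961, and 0.0284 with the block. CASP1, the inflammasome protease, was at -4.10 (edgeR adjusted p 0.152, and 0.0478 with the block). The other gene to pass with the block was RNF213, a ubiquitin ligase that binds intracellular bacteria, at -1.72 (edgeR adjusted p 0.204, and 0.0397 with the block), named after its values were seen. Over all lists 73 of 87 genes were tested, of which 3 passed as lower and 0 as higher, beside 0.102% and 0.0256% of all genes. With the block 19 passed as lower, beside 0.441% of all genes, and with DESeq2 33, beside 1.57%. As higher 0 passed in each, beside 0.0256% and 0.128% of all genes.

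Genes next to both clusters were examined for how far the difference extended along the chromosome. Within 500 kb of the GBP and MX stretches 13 further genes were tested, and 0 passed in edgeR. The 11 that are no GBP genes lay between -0.45 and 0.53, with a median of 0.06, and 0 of them passed with the block. On the side of GBP3 the nearest were RBMXL1, 13706 bases away, and KYAT3, 13713 bases away, with log2 differences of -0.13 (SE 0.23) and 0.10 (SE 0.24). On the other side the nearest were GBP5 and GBP1P1, given above. PTGES3P1, a pseudogene between GBP1 and GBP2, was at 0.43 (SE 0.22), the opposite direction to the genes on both sides, and was named after its values were seen. Around the MX stretch the tested genes lay further off. BACE2, a protease 79425 bases before it, was at -0.39 (SE 0.22). RIPK4, a kinase 280155 bases after it, was at -0.40 (SE 0.25), and PRDM15, 339011 bases after it, at -0.08 (SE 0.34). Their edgeR adjusted p were 0.746, 0.748 and 0.952. Of the 13 neighbours tested only GBP5 and GBP1P1, at -2.26 and -1.97, lay below the range of the other 11. The 6 GTPase genes were picked with this contrast in view, so setting them beside the neighbours is a description. After the MX stretch no gene nearer than RIPK4 was tested.

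**Figure D5:**
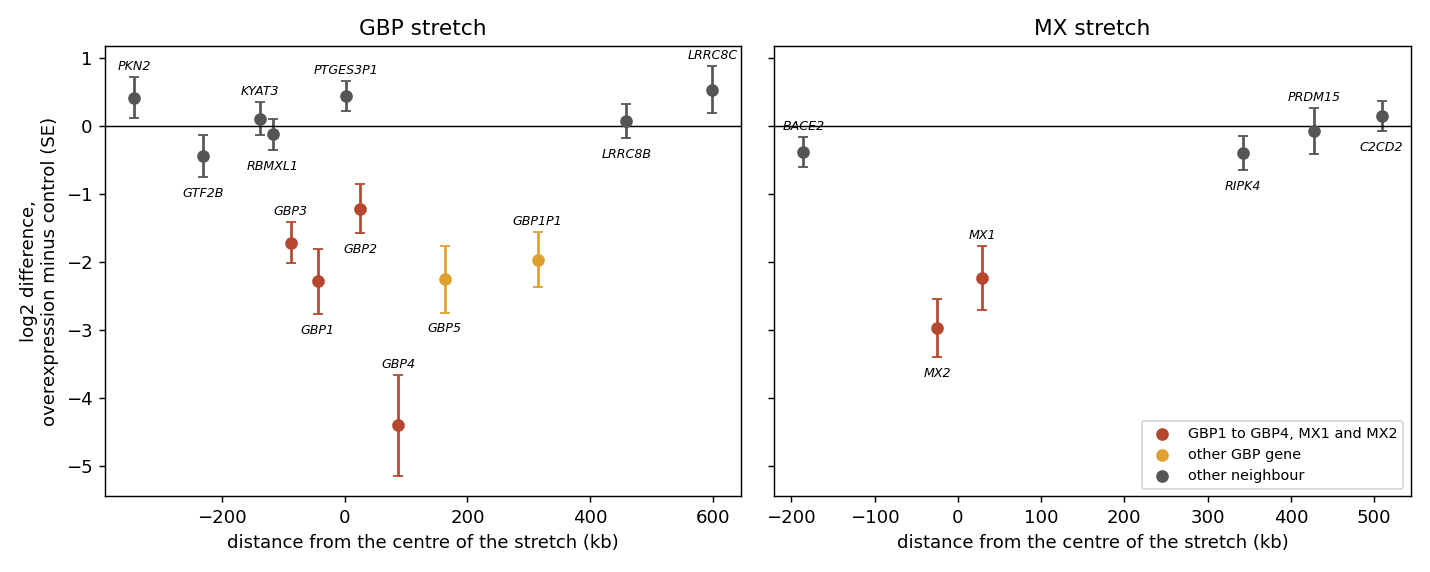
Log2 difference between overexpression and control with its SE (y axis) against distance from the centre of the GBP stretch (left panel) or the MX stretch (right panel) in kilobases, for tested genes within 500 kb. The 6 GTPase genes, GBP5 and GBP1P1 lie at -1.22 or lower, and the 11 other neighbours between -0.45 and 0.53.

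Genes whose levels over the 6 libraries were most like the mean profile of the 6 GTPases were sought among 10927 named genes. The highest correlations were those of APOBEC3B, a cytidine deaminase, at 0.9991, and of TLR3, a sensor of double-stranded RNA, at 0.9984. UBA7, the enzyme that activates ISG15, TAP2, a peptide transporter, DNPEP, an aminopeptidase, and PRKD2, a kinase, followed at 0.9977, 0.9975, 0.9974 and 0.9970. A coefficient above 0.9 was found for 398 genes, or 3.64%. This measure holds the difference between the groups, which was in view when the 6 genes were picked, so it favours genes that differ likewise. It does not reflect the size of the difference, since APOBEC3B was 2.02-fold and TLR3 7.79-fold lower. By deviations from the group means the highest were MTERF2, NFE2L3, PXMP4, FADS1, LBR and MPI, at 0.9970 to 0.9984, and 718 genes, or 6.57%, exceeded 0.9. Over 6 libraries, with 4 free values in the second measure, such coefficients are common and rank genes only loosely.

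How far paralogs could exchange reads was worked out from the annotated transcripts. Coding sequences of GBP1 and GBP3 were 91.6% identical, those of GBP1 and GBP2 82.4%, those of GBP1 and GBP4 66.6%, and those of MX1 and MX2 70.1%. Of all distinct 50-base stretches, 9.62% of those of GBP1 occurred in the transcripts of another gene, most of them in GBP1P1 (6.6% of the stretches), and 4.76% of those of GBP3 did, mostly in GBP1. For GBP1P1 the share was 16.6%, mostly with GBP1, so its counts are uncertain. For GBP2 it was 10.2%, of which 9.15% lay with GBP7, whose exons overlap those of GBP2 by 621 bases on the same strand and which had 0 counts. GBP4 shared 5.92%, most often with AC099063.4 (1.48%) and CASP10 (0.91%), and MX1 and MX2 shared 1.94% and 0.361%. Antisense transcripts overlap the exons of MX1 by 236 bases and those of GBP4 by 138 bases, and had 1 and 0 counts in all libraries. If the counting ignored strand, reads of a gene and of its antisense partner cannot be told apart.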

How the data were processed

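The authors deposited whole-number counts and FPKM values for each gene in 6 libraries. HISAT2 and FastQC are named, with GRCh38, per the submitters' processing notes; no source used here names the counting program or its strand setting. The kit was TruSeq RNA with paired ends, per the labels' protocols. The deposited FPKM could be rebuilt from the counts, the library totals and a gene length (median 1.52 times the length of merged exons), and served only as an alternative for levels per length. Of the identifiers 99.5% were in GENCODE release 29, 97.4% of those at the same position.

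edgeR 4.0.16 (R 4.3.3) fitted the counts with TMM factors, filterByExpr and the robust quasi-likelihood test, two-sided, with Benjamini-Hochberg adjustment over 15631 genes and a threshold of 0.05. The script was tested on simulated data. An SE is the log2 difference divided by the root of its F statistic. Log2 CPM had a prior count of 2. Alternatives were a replicate block, other size factors and filters, DESeq2 1.42.0, limma-voom 3.58.1 and leaving out each library. Biopython 1.88 aligned sequences. The floor of 3 counts covers counting error only, and p-values measure the spread between these libraries, labelled biological replicates.

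The 6 genes and the lists were chosen with earlier results of these data known. Named were the 6 genes, listed genes past the threshold (or the 2 of a list with the smallest p), the nearest neighbours and the 6 genes most alike by each measure. Deviations of same-numbered libraries from their group means correlated at 0.35, 0.16 and 0.29, and those of libraries with unlike numbers at -0.34 to 0.12. Deviations add up to 0 within a group, so these values are tied and are no test of pairing. The labels' protocol speaks of pairs, and the block and the pair differences take the numbers as pairs. EdgeR without the block leaves the pairing out, and 0 of the 6 genes passed there, against 5 with the block. Replicates differed by more than sampling noise (chi-square 23.9 to 85.7 per degree of freedom). One listed gene is not reported here by name.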

Additional observations from a re-analysis of the deposited data

How the results depend on the processing

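The 6 GTPase genes kept their direction in all 78 fits (6 genes under 13 alternatives), of which 18 gained a call and 0 reversed. Genes picked with this contrast in view, and whose groups did not overlap, could hardly turn. Their median log2 difference ran from -2.91, without overexpression 3, to -1.93 when 1 library was left out. Of the 6, 0 passed in edgeR, but 5 did under the replicate block, 2 when no filter was used, 5 by DESeq2, 1 by limma-voom, and 0 to 5 when 1 library was left out (5 without overexpression 3). Genes called lower were 16 in edgeR, but 69 under the replicate block, 246 by DESeq2 and 20 by limma-voom, each of 15631 tested. Unfiltered they were 72 of 28667. When 1 library was left out they were 0 to 144, with 144 of 15964 without overexpression 3 and 1 of 15959 without overexpression 1. The count was 0 without overexpression 2, control 2 or control 3, where 635, 871 and 742 genes had an unadjusted edgeR p under 0.05. Genes called higher were 4, but 20 by DESeq2 and 0 to 20 when 1 library was left out. Listed genes called were 3, but 19 under the replicate block, 15 unfiltered, 33 by DESeq2 and 0 to 19 when 1 library was left out. Neighbours called were 0, but 1 under the replicate block and 2 by DESeq2. SNHG5 stayed short of the threshold, at 0.39 to 0.97 when 1 library was left out, and the block did not change its call. With the lengths behind the deposited FPKM, 4 of 6 genes kept their place in the control order and 6 in the overexpression order. The cause of these shifts was not tested. With 12 to 104 counts per overexpression library, the fold of GBP4 is the least precise.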
